A study of Daphnia magna with 40 samples.

Results

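The subject is a single array probe, DM09934P1, whose level split the adult Daphnia magna of one experiment. In 5 of 20 adult arrays it lay far above the other 15, and the high arrays came from 4 of the 5 treatments, the carrier control included. The comparison described here is between those 5 high arrays and the 15 low arrays, 20 of the 40 arrays of the series. An array was called high where its DM09934P1 value was above 4 on the log2 scale defined next, so the division rests on measured values and is not one of the study's groups. What follows describes which other probes differed between arrays of the same treatment.

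Whole-animal RNA was labelled with Cy3 and hybridised to one-colour Agilent arrays. The study exposed a single clone, Clone F, kept as parthenogenetic cultures, at the adult and the juvenile stage. The adult groups were acetone alone, which all groups received as carrier at 0.1 ml/L, fluovoxamine at 10 µg/L (FV10), fluoxetine at 40 µg/L (FX40), and nonylphenol at 20 µg/L (NP20) or 60 µg/L (NP60), with 4 arrays each. These doses are those of the sample labels, and the series' design text gives others for fluoxetine and fluovoxamine. Adult exposures began with gravid females 8 to 9 days old and ran over 3 broods, or 10 to 14 days, and the eggs were flushed from the brood pouch before freezing. Juvenile groups had the same 5 treatments and 4 arrays each. They were exposed for 3 days from an age under 1 day, and each sample was a pool of 20 animals. The number of females behind an adult sample and the housing of the replicates are not in the labels. The p-values therefore describe variation among these samples, part of which may be technical.

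Daphnia magna is a freshwater crustacean in which females can reproduce without males, so animals of a clone start from the same genome. Fluoxetine and fluovoxamine belong to the selective serotonin reuptake inhibitors, known in mammals for blocking the transporter that takes serotonin back into nerve cells. Nonylphenol is a breakdown product of nonionic surfactants and is known as an oestrogen mimic in vertebrates. The probes carry IDs and no gene names, and 0 of 14338 IDs were found among the RefSeq genes of assembly ASM2063170v1.1, so no function is given to any of them. In these whole-animal samples, fewer cells carrying a transcript and less of it per cell cannot be told apart.

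Values are on a log2 scale, as the processed signal of a probe relative to its array's own 75th percentile, so 0 is the level below which 75% of spots of an array lie. On that scale DM09934P1 was 5.07 in acetone B, 5.68 in acetone E, 6.68 in FV10 A, 6.35 in FX40 B and 5.73 in NP20 C, the 5 high arrays. The 15 low arrays ran from -3.18 in acetone F to 2.14 in NP60 H, with a median of 0.42. The means were 5.90 ± 0.63 (SD, n = 5) and 0.12 ± 1.38 (SD, n = 15). The lowest high array stood at 5.07 and the highest low array at 2.14, so no array lay close to the threshold. These values chose the arrays and carry no test. DM09934P1 was well above background on all 40 arrays and saturated on none.

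Within acetone the probe spanned almost its whole adult range, from -3.18 in array F and 0.42 in array G to 5.68 in array E. In each of FV10, FX40 and NP20 a single array of 4 was high. The 3 low FV10 arrays lay close together, between 0.21 and 0.55, whereas the low FX40 arrays ran from -1.25 to 1.09 and the low NP20 arrays from -0.65 to 1.87. NP60 held no high array, and its values of -0.22, -0.94, -0.92 and 2.14 stayed below the threshold. The group means were 1.99 ± 4.17 for acetone, 1.99 ± 3.13 for FV10, 1.66 ± 3.28 for FX40, 2.16 ± 2.64 for NP20 and 0.01 ± 1.46 for NP60 (SD, n = 4 each). These means differ by less than the SD of each group except NP60.

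**Figure D1:**
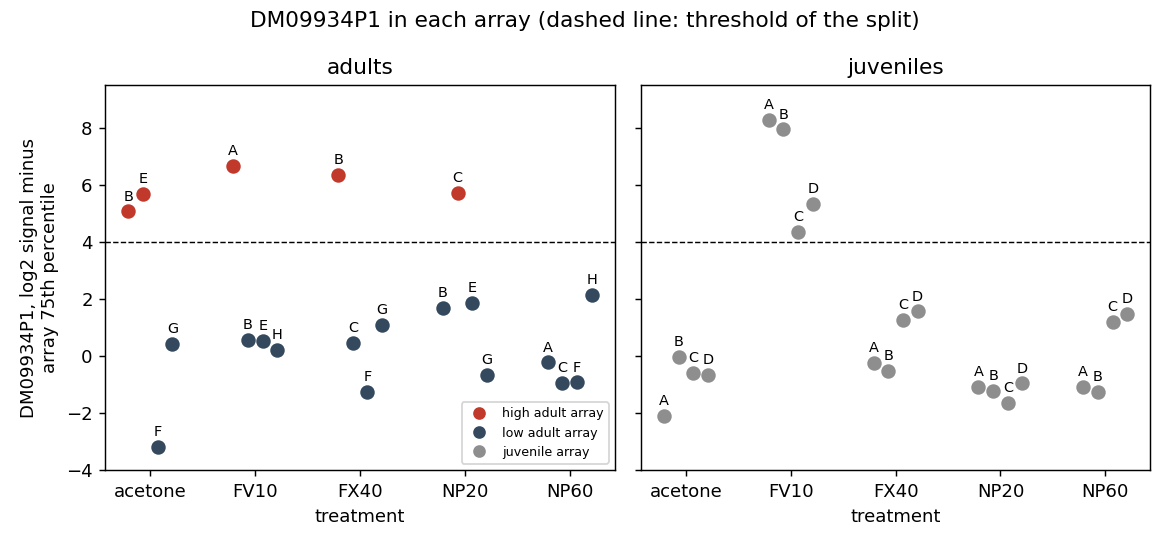
DM09934P1 in each of the 40 arrays, as log2 signal minus the array's 75th percentile (vertical axis), by treatment (horizontal axis), adults left and juveniles right. Letters are replicate names, and the dashed line is the threshold of 4. The 5 high adult arrays lie between 5.07 and 6.68, the 15 low adult arrays between -3.18 and 2.14.

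In juveniles, which took no part in the choice of arrays, the probe was high in one treatment. The 4 FV10 juveniles had 8.28, 7.94, 4.34 and 5.34, a mean of 6.48 ± 1.94 (SD, n = 4). The 16 other juveniles lay between -2.08 and 1.56, with a median of -0.63 and no overlap with FV10. The order of juvenile group means was FV10, FX40 (0.52 ± 1.05), NP60 (0.09 ± 1.46), acetone (-0.84 ± 0.87) and NP20 (-1.23 ± 0.30) (SD, n = 4 each). Of these neighbours, FX40 and NP60 overlapped, as did NP60 and acetone, and acetone and NP20. In all, 9 of the 40 arrays exceeded the threshold, 5 adult and 4 juvenile.

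Between high and low adult arrays few other probes differed beyond the replicate spread. With treatment as a block, limma passed 5 of 12546 tested probes at a Benjamini-Hochberg adjusted p under 0.05, which is 0.0399% of those tested. Of these, 1 (0.00797%) was higher and 4 (0.0319%) were lower in the high arrays. At an unadjusted p under 0.05 there were 1748 probes, or 13.9%. The typical difference was small: the median over all tested probes was 0.05 on the log2 scale, the median size was 0.34, and the 5th and 95th percentiles were -1.11 and 1.13. The smallest adjusted p was 0.0388.

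The largest fall belonged to DM06523P3. In the high arrays it read -2.78 in acetone B, -4.93 in acetone E, -3.12 in FV10 A, -4.01 in FX40 B and -3.92 in NP20 C. The low arrays ranged from -1.70 in NP20 B over a median of 0.95 to 2.58 in NP60 F. All 5 high arrays thus lay below all 15 low ones. The difference within treatments was -4.39 (SE 0.72), a level 20.9 times lower, with a limma adjusted p of 0.0388. It was -4.69 within acetone, -4.38 within FV10, -4.32 within FX40 and -4.05 within NP20. The probe was well above background on 4 of 5 high arrays and on all 15 low arrays. Acetone E, where it was not, was also the array with the lowest brightness of the 5. The size of the fall within acetone, and with it that over the treatments, is therefore uncertain.

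The direction of DM06523P3 was the same on each slide that held both kinds of array, with differences of -1.07, -5.64, -4.86 and -4.25 on slides 1, 2, 4 and 7. No slide held a high and a low adult array of the same treatment, so each difference within a slide is also one between treatments. With slide as a fixed block the difference was -4.13 and its limma adjusted p 0.0999. Normexp background correction, which raises dim signals by an offset, gave -1.41 with an adjusted p of 0.290. When single arrays were left out, the difference of DM06523P3 stayed between -4.60 and -4.11, and its adjusted p between 0.0191 and 0.212. It remained under 0.05 in 4 of 20 such fits, those without FV10 E, NP20 B, NP60 C or NP60 H.

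DM14495P1 also fell, from -3.58 on average in the low arrays to -5.01 in the high ones. The high values were -4.75 and -4.48 in acetone B and E, -5.98 in FV10 A, -5.35 in FX40 B and -4.51 in NP20 C. The low arrays lay between -5.35 in NP60 H and -2.15 in NP20 E, and overlapped with the high ones across treatments but not within any. Within FV10, neither the high array A nor the low array E was well above background, so the order of these arrays is not measured. The difference within treatments was -1.90 (SE 0.30, limma adjusted p 0.0388). This probe is dim, being well above background on 1 of 5 high arrays and on 13 of 15 low ones, which leaves the size of its change uncertain. With slide as a fixed block the difference was -1.50 and no longer passed (adjusted p 0.162). On slide 7, where the high and low arrays were of different treatments, the sign was opposite, 0.54. With normexp background correction the difference turned to 0.16.

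DM04169P3 was the single probe that rose. Its high values were -3.95 and -4.75 in acetone B and E, -1.40 in FV10 A, -2.20 in FX40 B and -2.59 in NP20 C. The low arrays ran from -6.99 in NP20 G to -2.69 in FV10 B. The high array exceeded the mean of the low ones by 2.49 within FV10 and 2.52 within FX40. The low arrays FV10 E (-4.70), FX40 F (-4.96) and FX40 G (-5.45) were not well above background, so both sizes are uncertain. In NP20 the high array exceeded 3 low arrays that were not well above background, so that difference has no measured size. In acetone 0 of 4 arrays were well above background, and their order is not measured. Across treatments high and low arrays overlapped. The difference was 2.47 (SE 0.40, limma adjusted p 0.0388). The probe was well above background on 3 of 5 high and 7 of 15 low arrays. On slide 7 the high array was lower by 0.51 than low arrays of other treatments. Normexp background correction gave a difference of 0.96 with a limma adjusted p of 0.290. The other probes that passed, both lower in the high arrays, differed by -1.74 and -1.43 and were likewise dim.

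**Figure D2:**
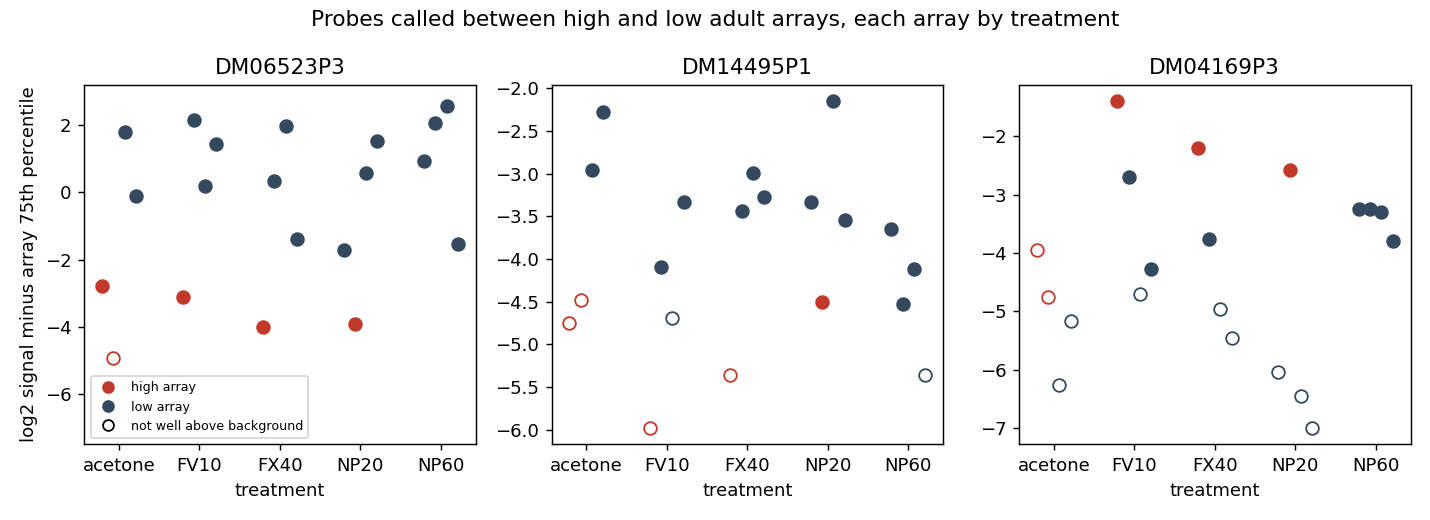
Level of 3 probes that passed the test in each of the 20 adult arrays, as log2 signal minus the array's 75th percentile (vertical axis), by treatment (horizontal axis). Red marks high and blue low DM09934P1 arrays, and open points were not well above background. DM06523P3 and DM14495P1 are lower and DM04169P3 is higher in the high arrays of each treatment that holds both kinds. However, no acetone array measured DM04169P3 well above background, and neither FV10 A nor FV10 E did so for DM14495P1.

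None of the 5 probes that passed cleared the background on each of the 20 adult arrays. Restricting the test to the 6267 probes that did gave 0 passing probes with limma, and 725 at an unadjusted p under 0.05. Leaving out one array moved the count between 0 and 50. It was 50 without NP20 B, 16 without FV10 E and 13 without NP60 H, 8 without NP20 C or NP60 C, 2 without FV10 A or NP60 A, 1 without FV10 B or acetone G, and 0 without any one of the remaining 11. Quantile normalization gave 87 (19 higher, 68 lower) and the authors' deposited log2 values 69 (19 higher, 50 lower). The mostly lower balance turned with slide as a fixed block, which gave 16 (9 higher, 7 lower), and without the FV10 arrays, which gave 5 (4 higher, 1 lower). Without the FV10 arrays DM06523P3, DM14495P1 and DM04169P3 lost their calls (limma adjusted p 0.0909, 0.0761 and 0.0761).

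**Figure D3:**
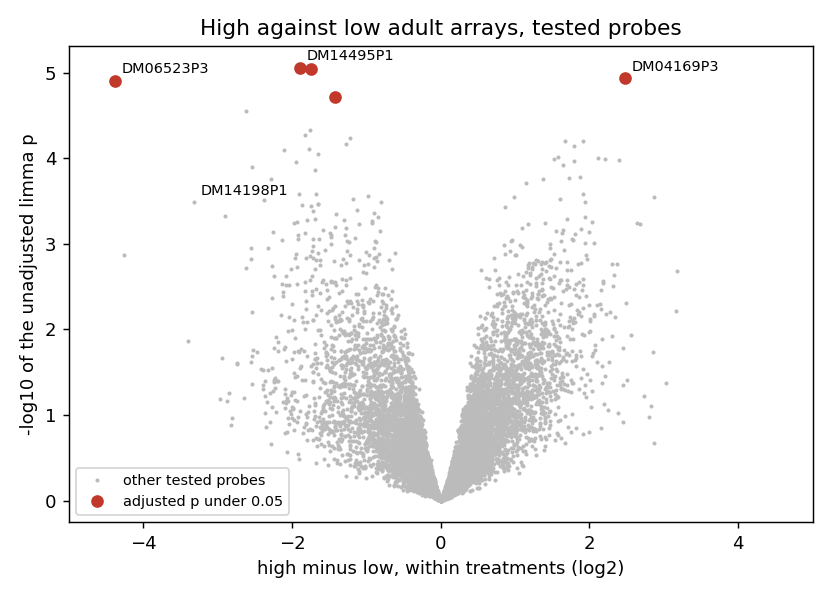
Difference of high minus low adult arrays within treatments on the log2 scale (horizontal axis) against -log10 of the unadjusted limma p (vertical axis) for the 12546 tested probes. The 5 red points have an adjusted p under 0.05, and DM06523P3 has the largest fall at -4.39.

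Separation of the arrays was also counted without a test. Among 11217 probes with a value in every array of the 4 treatments, high arrays lay beyond low arrays inside each treatment for 248 (2.21%), of which 149 were above (1.33%) and 99 below (0.883%). All 5 high arrays lay beyond all 15 low arrays for 10 of 11185 probes (0.0894%), 4 above (0.0358%) and 6 below (0.0536%). Of the 5 probes that passed the limma test, 4 separated high from low inside each treatment, counting values not well above background.

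DM14198P1, like DM06523P3, ran opposite to DM09934P1. In the high arrays it was -0.34 in acetone B, -2.38 in acetone E, 0.65 in FV10 A, -0.87 in FX40 B and -0.20 in NP20 C. In the low arrays it ran from 0.70 in FX40 G over a median of 3.01 to 5.55 in FX40 F. The highest high array, 0.65, and the lowest low array, 0.70, nearly touched but did not overlap. The difference within treatments was -3.33 (SE 0.74), with a limma adjusted p of 0.0958, so it did not pass. DM14198P1 cleared the background on each of the 20 adult arrays. Its differences within slides 1, 2, 4 and 7 were -2.86, -3.50, -3.56 and -5.28, each also a difference between treatments.

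Likeness to DM09934P1 was measured as Pearson's r of treatment-centred values over the 20 adult arrays, as a description. The most opposite probes were DM06523P3 (r = -0.940, Spearman's rho -0.886) and DM14198P1 (r = -0.894, rho -0.862). Without the 2 arrays farthest from the median, r was -0.920 and -0.886. Since the high and low arrays form separate clusters, the 15 low arrays were also taken alone: there r was -0.828 for DM06523P3 and -0.823 for DM14198P1. The arrays share a platform and a scaling, and these probes were picked from all tested probes as the extremes.

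The most alike probes were DM10079P1 (r = 0.887, rho 0.759) and DM12947P1 (r = 0.885, rho 0.884), with smaller differences in level. Within the 15 low arrays their r was 0.561 and 0.589. DM10079P1 was 0.99 on average in the high and 0.34 in the low arrays, a difference within treatments of 0.54 (SE 0.15, limma adjusted p 0.136). DM12947P1 was 0.51 and -0.12, a difference of 0.86 (SE 0.19, adjusted p 0.0958). Neither difference passed, although both probes cleared the background on each of the 20 adult arrays.

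**Figure D4:**
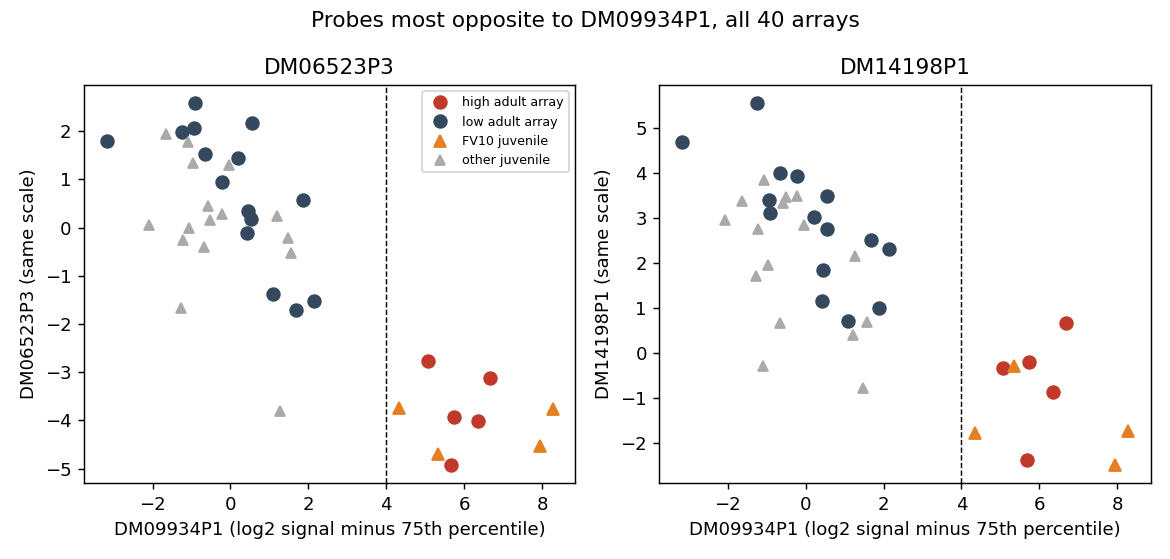
DM06523P3 (left) and DM14198P1 (right) against DM09934P1, all as log2 signal minus the array's 75th percentile, in the 40 arrays. Circles are adults, triangles juveniles, and the dashed line is the threshold of 4. The 5 high adult arrays and the 4 FV10 juveniles share the lower right corner of both panels.

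A fit on the level of DM09934P1 in place of the split used the spread inside the low and high arrays as well. Over the 20 adult arrays, limma passed 13 of 12546 probes (0.104%), 1 with a positive (0.00797%) and 12 with a negative slope (0.0956%). Of the 13, 2 had also passed the split. DM06523P3 had a slope of -0.75 per log2 unit of DM09934P1 (SE 0.07, adjusted p 6.05e-05). DM14198P1 had -0.61 (SE 0.08, adjusted p 0.00278). The positive slope was that of DM12947P1, 0.14 (SE 0.03, adjusted p 0.0451). The 12 negative slopes lay between -0.75 and -0.22. Of the 13 probes, 3 cleared the background on each of the 20 adult arrays. The slope in the low arrays alone had the same sign in 13 of 13. The same low arrays entered the fit that picked these probes, so the count is no independent support.

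Within the 15 low arrays alone, a fit added after the values were seen, limma passed 1 of 12546 probes (0.00797%). That probe, DM14877P1, had a slope of 0.74 (SE 0.09, adjusted p 0.0466) and was well above background on 5 of these 15 arrays. Over the split, the same probe differed by 0.14 (SE 0.60, adjusted p 0.931). DM06523P3 had a slope of -0.93 (SE 0.19, adjusted p 0.199) and DM14198P1 one of -0.93 (SE 0.20, adjusted p 0.199). Neither passed, and by p they ranked 24 and 31 of the tested probes.

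In juveniles the levels followed the treatment. DM06523P3 read -3.76, -4.54, -3.75 and -4.70 in the FV10 juveniles A to D, a mean of -4.19 ± 0.50 (SD, n = 4). In FV10 juvenile B it was not well above background. The 16 other juveniles had a median of 0.10 and a range from -3.81 to 1.94, and the FX40 juvenile C at -3.81 was the one array among them at the FV10 level. That array had a DM09934P1 value of 1.27, and DM06523P3 was not well above background on it. DM14198P1 read -1.74, -2.50, -1.79 and -0.30 in FV10 against a range from -0.79 to 3.83 elsewhere, so these groups overlapped. Across both stages, the 9 arrays above the threshold had DM06523P3 at -2.78 or lower, a level that 1 of the other 31 arrays reached, and DM14198P1 at 0.65 or lower, reached by 3 of 31. The probes most like DM09934P1 did not separate them: 23 of the 31 others were at or above the lowest of the 9 for DM10079P1, and 15 of 31 for DM12947P1. That both probes are low in these FV10 juveniles was known when they were chosen, so these values are a description and no independent support.

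Within juvenile treatments, limma passed 1 of 12879 probes (0.00776%) for a slope on DM09934P1, and 2054 at an unadjusted p under 0.05. DM15062P3 had a slope of 0.63 (SE 0.07, adjusted p 0.00115), but it cleared the background on 0 of 4 FV10 and 6 of the 16 other juvenile arrays. It had only a bound in FV10 and acetone. The slope of DM06523P3 within juvenile treatments was -0.04 (SE 0.22, adjusted p 0.944), and that of DM14198P1 was -0.65 (SE 0.24, adjusted p 0.233). None of the 5 probes that passed between high and low adults passed here.

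Without the treatment block, which leaves the FV10 juveniles against the rest in the slope, 3370 of 12879 probes passed (26.2%), 2025 with a positive (15.7%) and 1345 with a negative slope (10.4%). DM06523P3 then had a slope of -0.57 (adjusted p 0.000207) and DM14198P1 of -0.52 (adjusted p 0.000308). DM10079P1 and DM12947P1 had 0.09 (adjusted p 0.0223) and 0.12 (adjusted p 0.00476). In this fit, which was added after the values were seen, FV10 exposure and the level of DM09934P1 cannot be told apart. Of the 5 probes that passed in adults, 1 passed here with the same sign, DM06523P3.

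The slope on DM09934P1 differed between adults and juveniles for 6 of 13281 probes (0.0452%), 1 higher (0.00753%) and 5 lower (0.0376%) in adults, by limma's interaction term. That balance turned with the scaling: quantile normalization gave 5 (4 higher, 1 lower) and the deposited log2 values 15 (11 higher, 4 lower). DM04955P2 had slopes of 0.17 in adults and -0.37 in juveniles, a difference of 0.53 (SE 0.10, adjusted p 0.0263). DM09946P2 had -0.26 and 0.77, a difference of -1.04 (SE 0.20, adjusted p 0.0337). DM11982P1 had -0.31 and 0.60, a difference of -0.91 (SE 0.17, adjusted p 0.0263). On the 5 high adult arrays DM09946P2 was well above background on 1 and DM11982P1 on none. On FV10 juvenile C neither was well above background, at -7.78 and -6.81. Without that array their differences were -0.77 and -0.68, the smallest in size when single arrays were left out. For DM06523P3 the difference was -0.72 (adjusted p 0.191) and for DM14198P1 0.04 (adjusted p 0.958), neither past the threshold. Leaving out 1 of the 40 arrays gave counts between 0 (without FV10 juvenile A or C) and 15 (without FX40 juvenile D). The count was 13 without FX40 juvenile A, 12 without FV10 adult A and 10 without FV10 juvenile B. It was 3 without acetone juvenile A or FX40 juvenile C, and 1 without FX40 juvenile B or NP60 juvenile A, B or D.

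Whether the difference between high and low arrays was the same in the 4 treatments was tested with a moderated F test over 3 interaction terms. It passed for 109 of 12484 probes (0.873%), but FV10, FX40 and NP20 have 1 high array each. Tested singly, 45 probes passed for FX40, 1 for NP20 and 0 for FV10, where 701 had an unadjusted p under 0.05. Each term thus set a high-low difference that rests on a single high array against the high-low difference of acetone. A difference between treatments therefore cannot be told apart from one between single arrays. Without FX40 B, which removes the FX40 term, the count was 5, and without acetone F it was 179. For DM06523P3 the adjusted p was 0.998 and for DM14198P1 0.949.

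Because 2 of the 4 acetone arrays were high, the treatment comparisons of adults were fitted with and without the term for high and low arrays. For FX40 against acetone, 58 of 12545 probes passed with the term (0.462%) and 48 without it (0.383%). With the term 22 were higher (0.175%) and 36 lower (0.287%), and without it 14 were higher (0.112%) and 34 lower (0.271%). The 40 probes that passed both ways were 69.0% of the first set and 83.3% of the second. The fall of DM08009P2 was -4.61 with the term (SE 0.67, adjusted p 0.0166) and -4.31 without it (SE 0.74, adjusted p 0.0185). That of DM09557P1 was -4.34 with it (SE 0.78, adjusted p 0.0271) and -4.19 without it (SE 0.76, adjusted p 0.0203). DM04537P4 rose by 2.26 (SE 0.47, adjusted p 0.0468) against 2.23, and DM03898P3 rose by 2.24 (SE 0.39, adjusted p 0.0271) against 2.09. Both rises took the opposite sign, -0.25 and -1.13, with normexp background correction. There DM04537P4 had an adjusted p of 0.580, while DM03898P3 passed as a fall (adjusted p 0.0272). DM03898P3 cleared the background on 0 of 4 acetone arrays.

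The balance of higher and lower probes for FX40 against acetone also moved with the scaling and filter. Normexp gave 1135 higher and 5763 lower, quantile normalization 36 and 218, and probes above background on every adult array 58 and 193. The FX40 count was 0 with array brightness as a covariate and 2 with slide as a fixed block, and it depended on single arrays. It was 209 without acetone G, 12 without FX40 C, 9 without acetone F, 1 without acetone B or E, and 0 without FX40 B. It was 31 without FV10 B, 35 without FX40 G or NP60 F, 36 without NP60 H and 38 without NP20 G. For FV10, NP20 and NP60 against acetone, limma passed 0 probes (0%) with the term and 0 without it. Their counts at an unadjusted p under 0.05 were 1436, 2193 and 1278 with the term, and 1017, 2006 and 830 without it.

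Technical measures of the arrays overlapped between high and low. The log2 of the 75th percentile signal was 7.83 ± 0.99 (SD, n = 5) in high and 8.09 ± 0.53 (SD, n = 15) in low arrays, with a two-sided exact permutation p of 0.805 within treatments. The share of probes well above background was 70.3% ± 12.9 and 74.9% ± 7.9 (exact permutation p 0.771). For these and the 3 other measures, which were median background, saturated spots and outlier spots, the adjusted p was 0.862, and the 384 arrangements allow no p below 0.0026. Outlier spots averaged 17.6 ± 14.6 (SD, n = 5) in high and 111 ± 351 (SD, n = 15) in low arrays. Acetone G, 1 of the 2 low acetone arrays, held 1379 of them, against at most 43 on a high array. Its share of probes well above background, 60.1%, was the lowest among the low arrays. The high arrays lay on slides 1, 2, 4 and 7 of 7 slides. In a principal component analysis of treatment-centred values of 11185 probes without DM09934P1, the first component held 19.0% of the variance. All 5 high arrays had negative scores on it, from -71.6 to -17.7, as did 5 of the 15 low arrays. Scores of the low arrays ran from -37.5 in NP20 B to 82.4 in acetone G.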

How the data were processed

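Members, lists and tests were chosen with earlier results of these data known. Per the file headers, Agilent Feature Extraction 10.7.3.1 read the scans, and the deposited processed intensity of a spot has its background and spatial trend already removed. The authors' deposited series table holds log2 values, whose full processing the sources used here do not give, and served as an alternative.

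The values used were log2 of the processed intensity minus the array's 75th percentile over non-control spots. Outlier spots were left out, saturated ones kept, and spots of a probe averaged. Tested probes were well above background on 4 or more of the fitted arrays, and DM09934P1 was left out. The fit within the 15 low arrays instead kept the probes that met this filter over the 20 adult arrays, the high ones included. Probes with missing values were fitted on the arrays that had them. Fits used limma 3.58.1 (lmFit, eBayes) in R 4.3.3 with Benjamini-Hochberg adjustment, and were tested on simulated data. Array measures were compared by exact permutation within treatments. The probes named had the largest changes among those that passed in a comparison, with at most 2 per direction. Those of the high against low comparison also had to separate high from low arrays inside each treatment. Those of FX40 against acetone had to separate the FX40 from the acetone arrays, and for slopes no separation was asked. The 4 probes most like or most opposite to DM09934P1 were added. DM14877P1 was named after its value was seen.

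No arrays were duplicates (highest correlation 0.9634). The number of arrays limits the precision. Alternatives were normexp (offset 50, on median signals, since mean signals were not used here), quantile normalization, the deposited log2 table, probe filters, slide, brightness, replicate letter, array weights, treatments or arrays left out, and the level in place of the split. The replicate letters were not used to pair arrays. Treatment-centred values of same-letter adult arrays correlated by 0.09 on average (-0.23 to 0.31, 20 pairs), against -0.01 for 140 pairs of different letters.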

Additional observations from a re-analysis of the deposited data

Results flagged for a closer look

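Within groups of 4 or 5 arrays, 102 sets of values were screened for an array far from the others, and 4 were found, where chance gives about 1 in 20. DM09934P1 in FV10 adult A, at 6.68, stood apart from the other FV10 adults, which is the array the threshold calls high. DM04169P3 in NP60 adult H was -3.79, apart from the other NP60 adults. DM09557P1 in FX40 adult B was -1.47, apart from the other high arrays, none of which is an FX40 array. This probe was named for its fall in FX40, so that gap follows from its choice. Among the FX40 adults, which ran from -3.10 to 1.24, array B lay inside the range. The log2 of the 75th percentile signal of acetone adult E was 6.265, the dimmest of its group.

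The moderated F test of high and low arrays by treatment passed for 109 probes, but with 1 high array each in FV10, FX40 and NP20 it cannot tell treatments apart from single arrays. The slope on DM09934P1 differed between stages for 6 probes, among them DM04955P2 (0.53 in adults minus juveniles), DM09946P2 (-1.04) and DM11982P1 (-0.91).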

How the results depend on the processing

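Of the 5 probes that passed between high and low adults, the count became 0 with normexp, with probes well above background on every array, with array weights, and without acetone or FX40 arrays, where 1875, 725, 1451, 1413 and 1145 probes had an unadjusted p under 0.05. It was 87 with quantile normalization, 69 with the deposited table, 16 with slide as a fixed block (9 higher, 7 lower), 13 with the level as covariate, 3 without NP60, 1 without the treatment block, 22 without NP20 and 1 for the slope within low arrays, and 0 to 50 with single arrays left out. With the replicate letter as a block, where the labels do not say whether a letter marks anything shared, it was 0, the interaction 6, the slope between stages 1 and the FX40 count 0. The juvenile count of 1 became 0 with normexp, the strict filter, slide, brightness, and without the FV10 juveniles or their A and B, and 3370 without the treatment block. It stayed at 1 with each juvenile array left out. The 6 stage differences became 0 with normexp or slide, 15 with the deposited table, and 1 with the strict filter or array weights (0 to 15 with arrays left out). The 109 interactions became 33 with normexp and 9 with slide (5 to 179). The FX40 count of 58 became 6898 with normexp, 254 with quantile normalization, 29 with the deposited table, 251 with the strict filter, 30 with outlier spots kept, 2 with slide and 0 with brightness (0 to 209). FV10 gave 5 with normexp, 4 with the deposited table, 2 with the strict filter or array weights and 1 with slide (0 to 6). NP20 gave 127 with quantile normalization and 1 with the deposited table (0 to 15), and NP60 gave 1 with array weights (0 to 1). Signs turned with normexp for DM14495P1 (0.16), DM04537P4 (-0.25) and DM03898P3 (-1.13), and for saturated spots over all adult arrays (-3.53). With arrays left out, high minus low ran from -0.30 to 0.16 for log2 brightness, -5.0 to 1.33 for the percent of probes above background and -6 to 11.1 for saturated spots. DM06523P3 and DM04169P3 kept their direction in each of 38 alternatives, but no longer passed in 24 and 25 of them. DM14198P1, DM10079P1 and DM12947P1 kept theirs in each of 39. These probes were picked from the same arrays, and many alternatives left out a single array, so a kept direction is weak support. DM14198P1 passed with quantile normalization (adjusted p 0.0406) and with the level as covariate (0.00278). The cause of these shifts was not tested. Dim probes limit the test: none of the 5 was above background on every adult array.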
